A study of Mus musculus with 25 samples.

Results

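The serine and folate one-carbon enzymes described here are 10 of the 48795 genes measured by RNA sequencing in 25 mouse liver and tumor libraries. They were chosen by gene symbol: Phgdh, Psat1 and Psph of serine synthesis, Shmt1 and Shmt2, which split serine, and the folate enzymes Mthfd1, Mthfd2, Mthfd1l, Aldh1l1 and Aldh1l2. Each symbol matched 1 identifier, and all 10 passed the filter on low counts that left 15625 genes for testing. The serine synthesis genes had been looked at in tumors against peritumoral tissue when the list was proposed, so every tumor value below is a description without a test.

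Serine is made from the glycolytic intermediate phosphoglycerate by Phgdh, Psat1 and Psph in turn. The serine hydroxymethyltransferases Shmt1 (cytosol) and Shmt2 (mitochondria) then move a carbon unit from serine to tetrahydrofolate and leave glycine. In mitochondria Mthfd2 oxidizes that unit and Mthfd1l releases it as formate, which the cytosolic Mthfd1 loads onto folate again for purine, thymidylate and methionine synthesis. Aldh1l1 in the cytosol and its mitochondrial paralog Aldh1l2 burn surplus units to carbon dioxide, and adult liver is known for a large cytosolic folate pool and for abundant Aldh1l1.

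The libraries came from male C57BL/6J mice in 5 groups. Control livers (labelled nonDEN-L-CD, n = 3) came from mice on control diet, and western-diet livers (nonDEN-L-WD, n = 4) from mice on western diet, both without the carcinogen. All other mice had received diethylnitrosamine (DEN), a carcinogen activated in hepatocytes, at 25 mg/kg into the peritoneum at 2 weeks of age. On control diet they gave the DEN livers (labelled DEN-L-CD, n = 4). On western diet they gave peritumoral liver (DEN-PT-WD, n = 8) as well as tumors (DEN-T-WD, n = 6). Diets began at weaning and tissue was harvested at 36 weeks of age, with 39 weeks given as the latest age in a legend. The DEN livers were whole tissue, since their tumors were too small to dissect, whereas peritumoral liver was cut away from tumors, so the diet contrast among DEN mice also differs in dissection. Nothing in the labels links a tumor to the peritumoral tissue of the same mouse.

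Library totals were 21530083 to 38074411 expected counts. TPM, a level per transcript length, was used to compare genes. The normalized read count, an expected count scaled by TMM library size, was used to compare libraries for 1 gene. The scales are not interchangeable here, because TPM of the median gene was higher by 0.35 on the log2 scale in peritumoral liver than in the control livers and the edgeR fold change of the median gene was 0.04. Hepatocyte markers summed to 39599 to 69023 TPM in the non-tumor libraries, and none of the 8 was at 0 throughout a group. Tumor replicate 5 stood apart in several members and in hepatocyte markers, and tumor values are given with and without it. Markers of pancreatic acinar cells ranged from 9.77 to 6612 TPM over the libraries and reached 1000 TPM in 8 of them, at least 1 in each group, and members are also given without those libraries where a call is lost.

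In GRCm38 coordinates, the serine synthesis genes lie on the minus strand, Phgdh at chr3:98313170-98339990, Psat1 at chr19:15904678-15947337 and Psph at chr5:129765558-129787449. Shmt1 (chr11:60788104-60811718) and Shmt2 (chr10:127517123-127522444) are also on the minus strand. Mthfd1 (chr12:76255298-76319803), Mthfd1l (chr10:3973118-4167081) and Aldh1l1 (chr6:90486427-90600203) are on the plus strand. Mthfd2 (chr6:83305691-83325908) and Aldh1l2 (chr10:83487450-83534140) are on the minus strand.

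Some reads of these genes could belong to others. Of the distinct stretches of 50 bases in Phgdh transcripts, 47.8% also occur in transcripts of other genes, mostly the pseudogene Gm7901, which was above 0 in 4 of 25 libraries with at most 7.83 counts. For the other 9 genes the share was at most 1.25%. Psph meets Cct6a, a chaperonin subunit gene on the opposite strand, over 452 of its 4329 exonic bases, and use of strand in counting is not given in the sources used here.

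The stretches before the transcription start are shown for 3 folate genes. Mthfd1 and Aldh1l1 are shown because they varied most alike of all pairs of members, and Mthfd1l because it alone was called in all 3 comparisons of peritumoral liver. They are RefSeq sequences of build GRCm38.p6, from 130 to 31 bases before the start, all on the plus strand, at chr12:76255102-76255201 for Mthfd1, chr6:90550663-90550762 for Aldh1l1 and chr10:3972945-3973044 for Mthfd1l. The stretch of Aldh1l1 lies inside the gene span given above, so its RefSeq start is not the first base of that span. Capitals mark CCAAT read on either strand, a motif chosen after the windows had been searched.
Mthfd1: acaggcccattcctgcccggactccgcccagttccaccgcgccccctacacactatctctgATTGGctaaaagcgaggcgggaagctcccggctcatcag
Aldh1l1: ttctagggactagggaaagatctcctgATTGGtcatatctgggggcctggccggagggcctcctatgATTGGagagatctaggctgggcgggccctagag
Mthfd1l: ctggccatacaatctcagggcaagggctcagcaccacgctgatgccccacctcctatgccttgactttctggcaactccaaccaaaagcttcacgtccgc
The CCAAT of Mthfd1 began 69 bases before the start, and those of Aldh1l1 began 103 and 63 bases before it. Over whole windows of 300 bases (250 before and 50 after the start), 7 of the 9 members with a window held CCAAT on either strand, against 37.4% of 32851 windows. Shmt2 and Mthfd1l held none. The letters TGATGNAA, TGACGTCA and CACGTG, searched on both strands, were in 0 of the 9 and in 3.97%, 1.79% and 7.15% of all windows. These are matches of letters only.

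**Figure D1:**
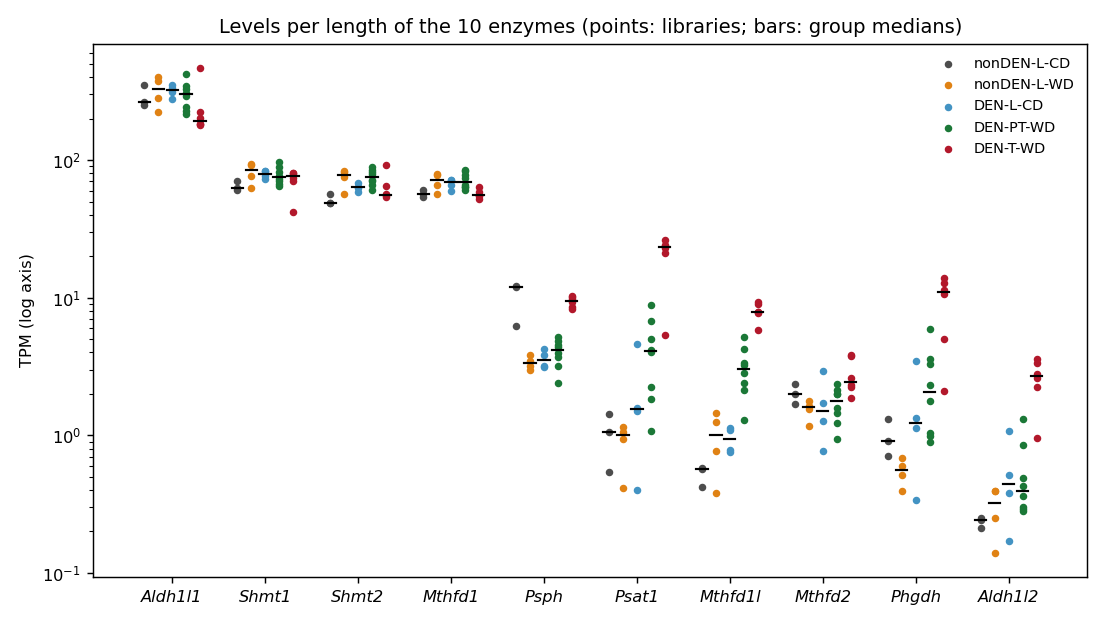
TPM (log axis) of the 10 enzymes in each of 25 libraries, coloured by group, with bars at group medians. Aldh1l1 lies above all others, Shmt1, Shmt2 and Mthfd1 form a band between 41.7 and 96.2 TPM, and the other 6 enzymes reach at most 26.1 TPM.

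The cytosolic Aldh1l1 had the highest level of the 10 in every group, with medians of 266 TPM in the control livers, 327 in the western-diet livers, 322 in the DEN livers and 301 in peritumoral liver. It stood above 97.1% of the 12418 genes whose mean was at least 1 TPM. Shmt1, Shmt2 and Mthfd1 followed at medians of 49.1 to 84.8 TPM outside tumors, and in the western-diet livers and peritumoral liver neighbours among these 3 overlapped in range. Psph came next at medians of 3.335 to 11.97 TPM. Psat1, Phgdh, Mthfd2 and Mthfd1l had medians of 0.555 to 4.105 TPM, and Aldh1l2, at 0.24 to 0.445 TPM, was lowest in each non-tumor group.

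The order of the low genes was less settled. In peritumoral liver the neighbours from Psph down to Aldh1l2 all overlapped in range. In the control livers the steps from Psph to Mthfd2, from Mthfd2 to Psat1, from Phgdh to Mthfd1l and from Mthfd1l to Aldh1l2 had no overlap. Low levels meant few reads: Aldh1l2 rested on 15 to 95 expected counts per non-tumor library and Phgdh on 11 to 155, against 10836 or more for Aldh1l1. The biological coefficient of variation that edgeR estimated was 57.8% for Phgdh, 61.0% for Psat1 and 52.9% for Aldh1l2, against 15.3% for the median gene and 11.7% for Mthfd1.

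**Figure D2:**
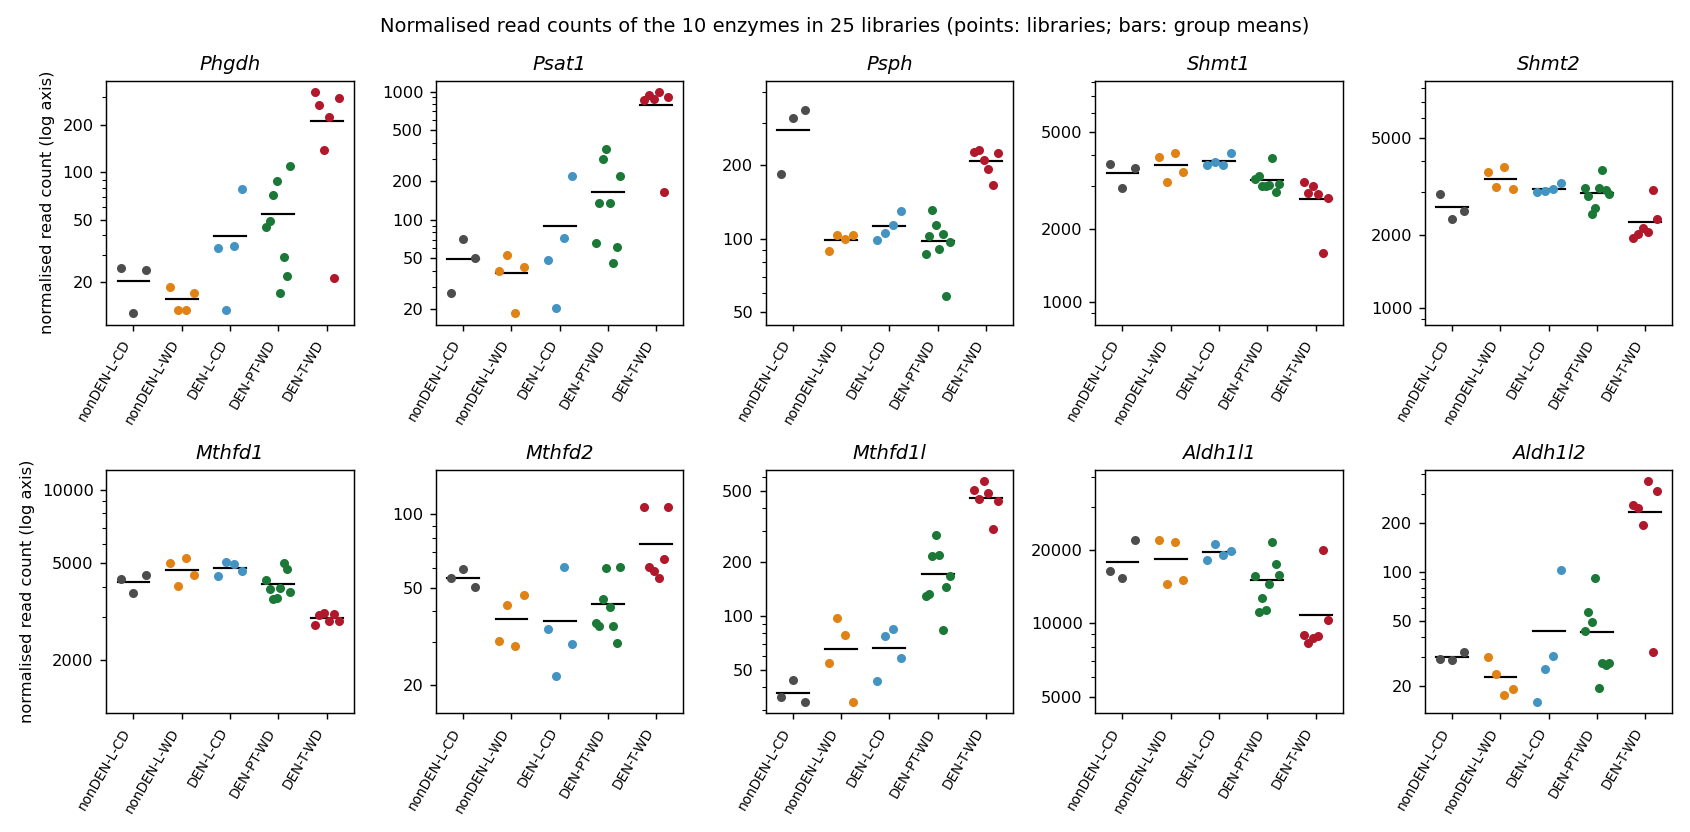
Normalized read count (log axis) of each enzyme in each library (points) by group, with bars at group means. Psph is high in the control livers and tumors, Mthfd1l steps up in peritumoral liver and again in tumors, and Mthfd1 of all 6 tumors lies below all 8 peritumoral values.

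The non-tumor groups were compared pairwise in 1 edgeR fit, with genes called at an adjusted p of at most 0.05. Western against control diet without DEN changed 2 of the 10 members, against 23.2% of all genes tested: Psph fell and Shmt2 rose. DEN against no DEN on control diet changed 1 member (Psph, lower), against 21.3% of genes. Peritumoral liver against the control livers changed 3 (Mthfd1l and Psat1 higher, Psph lower), against 45.3% of genes. These 3 comparisons share the same 3 control livers. Peritumoral liver against the western-diet livers changed 2 (Mthfd1l and Psat1, both higher), against 12.4% of genes, and peritumoral liver against the DEN livers changed 1 (Mthfd1l, higher), against 10.6%. Between the DEN livers and the western-diet livers 0 members passed in edgeR and 0 in DESeq2, against 0.717% of genes, and 0 members had an unadjusted p under 0.05. The median log2 fold change of the 10 lay between -0.165 and 0.225 in these comparisons, beside medians over all genes of -0.01 to 0.04. Counts out of 10 are coarse, and no difference from the share of all genes is read from them.

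**Figure D3:**
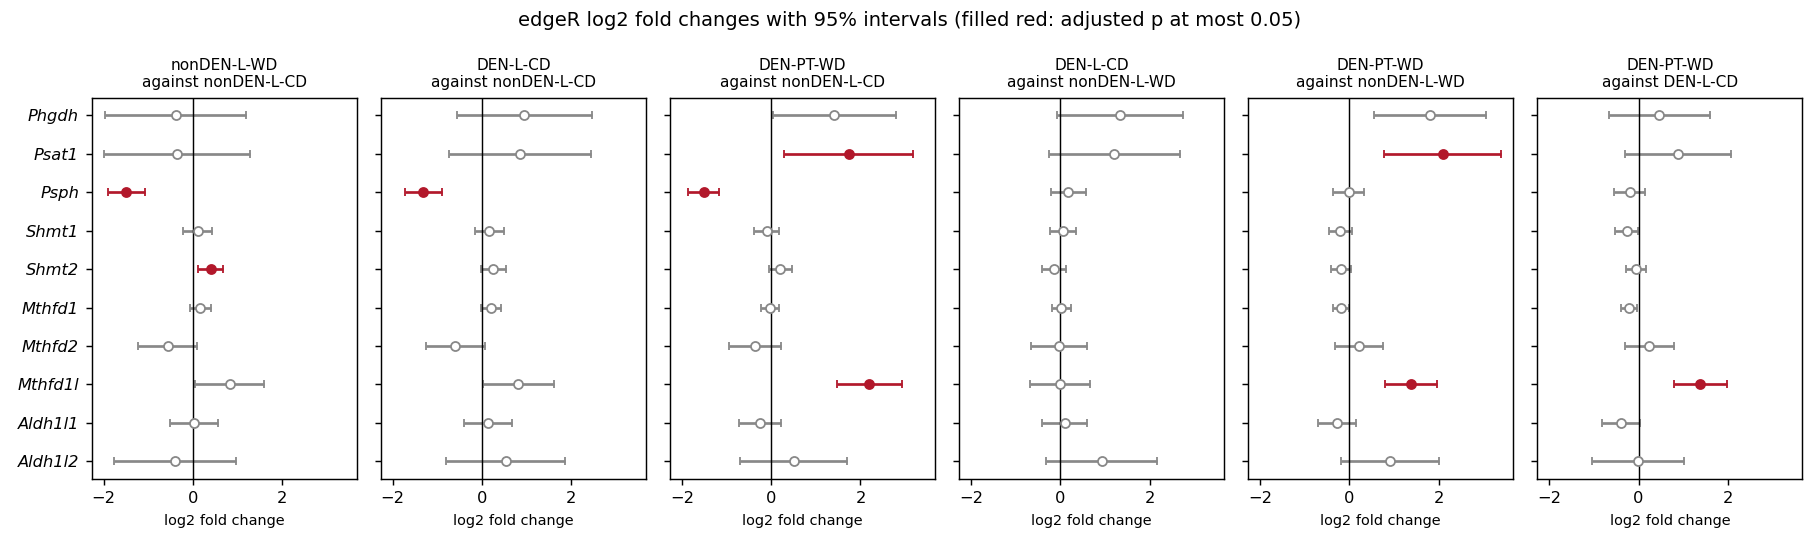
edgeR log2 fold changes of the 10 enzymes with 95% intervals in 6 comparisons of non-tumor groups, filled red where the adjusted p was at most 0.05. Intervals are wide for Phgdh, Psat1 and Aldh1l2 and narrow for Shmt1, Shmt2 and Mthfd1, and Mthfd1l passed in each of the 3 comparisons of peritumoral liver.

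Mthfd1l, the mitochondrial enzyme that releases formate, was the only member called in all 3 comparisons of peritumoral liver. Its normalized counts were 35.1, 43.7 and 33.2 in the control livers, 54.6, 97.4, 78.3 and 33.03 in the western-diet livers, and 43.5, 77.1, 84.97 and 58.6 in the DEN livers. In peritumoral liver they ran from 83.4 (replicate 6) through a median of 155.5 to 282. All 8 peritumoral libraries were above all 3 control livers, as for 16.9% of genes, and only replicate 6 fell within the ranges of the other 2 groups. The log2 fold change of peritumoral liver was 2.20 ± 0.35 (SE) against the control livers (edgeR adjusted p = 3.74e-05), 1.38 ± 0.29 against the western-diet livers (adjusted p = 0.00482) and 1.38 ± 0.29 against the DEN livers (adjusted p = 0.00554). Each of these calls held under every alternative run, with adjusted p of at most 0.0404.

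Neither diet nor DEN alone gave a call for Mthfd1l. Its log2 fold change was 0.82 (95% interval 0.04 to 1.601, adjusted p = 0.12) for western diet without DEN and 0.82 (0.03 to 1.604, adjusted p = 0.13) for DEN on control diet. Without western-diet replicate 4 the diet difference was 1.04 (adjusted p = 0.0422), and without the libraries rich in acinar markers 1.19 (adjusted p = 0.0349). The interaction of DEN with diet, the difference between the 2 diet contrasts, was 0.56 ± 0.47 (edgeR adjusted p = 0.49).

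Markers of other cells and of hepatocyte zones moved with Mthfd1l, and their part in the result was not tested. In a whole-tissue library more cells of a type and more RNA per cell cannot be told apart. Stellate cell and fibroblast markers summed to 157 to 259 TPM in the western-diet livers, 171 to 209 in the DEN livers and 254 to 475 in peritumoral liver, and 5 of 8 rose in peritumoral liver against the western-diet livers and 4 of 8 against the DEN livers. Endothelial markers summed to 82.7 to 129, 101 to 113 and 134 to 170 TPM in the same groups, with 3 and 4 of 6 higher. Macrophage markers had medians of 196, 176 and 357 TPM with 2 of 8 higher in both comparisons, and bile duct markers had medians of 48.6, 48.1 and 157 TPM with 1 of 6 higher, the secreted protein gene Spp1. No marker of these lists was at 0 in a whole group. Peritumoral replicate 6, the lowest in Mthfd1l, also had the lowest sums of the macrophage, lymphocyte, stellate, endothelial, bile duct and proliferation markers among the 8. Proliferation markers had medians of 8.65 TPM in the western-diet livers and 16.9 TPM in peritumoral liver, with 3 of 8 higher. Against the DEN livers (median 10.11 TPM) 0 of 8 passed in edgeR, where 6 had an unadjusted p under 0.05, and 2 passed in DESeq2. Pericentral hepatocyte markers were lower in peritumoral liver than in the western-diet livers for 4 of 6 (median log2 difference -0.55, summed levels of 4996 to 8268 against 7288 to 9549 TPM). Against the control livers 6 of 8 stellate, 3 of 6 endothelial, 4 of 8 macrophage, 4 of 7 lymphocyte and 6 of 8 proliferation markers were higher and 4 of 8 hepatocyte markers lower.

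Psph, the phosphatase of the last step to serine, was high in the control livers alone among non-tumor groups. Normalized counts were 184, 314 and 339 in the control livers. They were 88.8, 104, 99.97 and 103 in the western-diet livers, 98.6, 106, 114 and 131 in the DEN livers, and 58.2 to 131 with a median of 99.7 in peritumoral liver. All 3 control livers lay above all 16 others. Of all genes, 15.2% were lower without overlap in the western-diet livers, 17.2% in the DEN livers and 14.9% in peritumoral liver. The log2 fold change was -1.49 ± 0.20 for western diet without DEN (edgeR adjusted p = 2.54e-05), -1.31 ± 0.20 for DEN on control diet (adjusted p = 9.76e-05) and -1.51 ± 0.17 for peritumoral liver against the control livers (adjusted p = 5.73e-07). The 3 falls rest on the same 3 control livers, of which replicate 1 was lowest, and each held with any 1 of them left out. The summed pericentral hepatocyte markers also set the control livers apart (3967 to 4541 TPM, 4996 to 9549 TPM in the other non-tumor libraries). The median of the 6 log2 differences was 0.81 for western diet, 0.16 for DEN and 0.16 for peritumoral liver, with 6, 5 and 3 of 6 above 0. Red blood cell markers (760 to 954 TPM, at least 1238 TPM elsewhere) and, narrowly, lymphocyte markers (6.95 to 6.99 TPM, at least 7.01 elsewhere) set the control livers apart too. The summed bile duct markers were also lowest there (32.4 to 39.8 TPM, at least 40.0 elsewhere), a sum made mostly of Spp1, while the list's median log2 difference was -0.06 for western diet, -0.065 for DEN and -0.01 for peritumoral liver, and Sox9 was called lower for western diet and for DEN. Of the hepatocyte list, Hnf4a had 17910 to 19400 normalized counts in the control livers and at most 15630 in the other non-tumor libraries, but the summed list (61681 to 64812 TPM) lay within the range of the others. Their part in the result was not tested.

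The difference of Psph between diets was larger without DEN than with it, though in DEN mice dissected peritumoral tissue was set against whole liver. The contrast without DEN uses the same control livers as above. In DEN mice the log2 difference of peritumoral liver from the DEN livers was -0.20 (95% interval -0.54 to 0.14), and the interaction was 1.30 ± 0.26 (adjusted p = 0.00437), the only member to pass, against 8.39% of genes. It passed in all 26 alternatives with adjusted p of 0.000217 to 0.0213. Cct6a, which shares exonic bases with Psph, had medians of 79.98 TPM in the control livers and 67.3 to 78.3 TPM in the other non-tumor groups, and its range in the control livers (68.7 to 89.2) overlapped those of the western-diet livers (70.4 to 80.3) and peritumoral liver (66.0 to 82.1), and at its lower end that of the DEN livers (64.5 to 69.5).

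Phgdh and Psat1, the other steps of serine synthesis, were low and uneven. Psat1 had normalized counts of 26.9, 71.3 and 50.4 in the control livers, 40.0, 53.0, 18.55 and 42.6 in the western-diet livers, and 48.8, 20.5, 71.6 and 218.5 in the DEN livers. In peritumoral liver it ran from 46.3 through 135 to 357, so that every pair of groups overlapped. Its log2 fold change was 2.09 ± 0.63 against the western-diet livers (edgeR adjusted p = 0.034) and 1.73 ± 0.70 against the control livers (adjusted p = 0.047). The call against the western-diet livers was lost without western-diet replicate 1, 3 or 4 or peritumoral replicate 3, 4 or 8 (log2 1.83 to 2.14, adjusted p = 0.0558 to 0.0965) and without the libraries rich in acinar markers (2.56, adjusted p = 0.153). That against the control livers was lost without any 1 of the 3 control livers, without peritumoral replicate 2, 3, 4, 5 or 8 (log2 1.41 to 2.09, adjusted p = 0.0509 to 0.171 in all), without the acinar-rich libraries (1.81, adjusted p = 0.126) and without the count filter (1.74, adjusted p = 0.0667).

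Phgdh, the enzyme of the committing step, went the same way without passing. Its normalized counts were 24.6, 12.65 and 24.1 in the control livers, 18.5, 13.2, 13.4 and 17.05 in the western-diet livers, 32.9, 13.25, 34.0 and 78.1 in the DEN livers, and 17.2 through 47.2 to 109.5 in peritumoral liver. Only the lowest peritumoral library fell within the western-diet range. The log2 difference was 1.80 (95% interval 0.545 to 3.06, edgeR adjusted p = 0.053), and it passed without peritumoral replicate 5, 6 or 7 (adjusted p = 0.0392 to 0.0419), with DESeq2 (adjusted p = 0.0114), in the fit of the 19 non-tumor libraries (adjusted p = 0.026) and in that of the groups compared only (adjusted p = 0.0356). Against the control livers it was 1.41 (adjusted p = 0.0883), and it passed with DESeq2 (adjusted p = 0.0433) and in the fit of 19 libraries (adjusted p = 0.0464). DEN liver replicate 4 was the highest of its group in Phgdh, Psat1 and Aldh1l2, and peritumoral replicate 4 was the highest of its group in Psat1 and Aldh1l2. The acinar markers of those libraries were low, at 32.1 and 31.1 TPM. Within groups, deviations of Phgdh correlated with those of Psat1 at r = 0.685 and with those of Aldh1l2 at r = 0.64, and with those of Psph at r = 0.38, over 19 non-tumor libraries that share their group means.

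The serine hydroxymethyltransferases differed little. Shmt2 had normalized counts of 2938, 2321 and 2500 in the control livers and of 3606, 3131, 3778 and 3077 in the western-diet livers, without overlap, as were 15.6% of genes in that direction. The log2 fold change was 0.39 ± 0.14 (edgeR adjusted p = 0.0447). It was no longer called without control replicate 2 or 3 or western-diet replicate 1 or 3 (adjusted p = 0.1 to 0.196), without the acinar-rich libraries (0.52, adjusted p = 0.0711), with DESeq2 size factors (adjusted p = 0.0507) or without the count filter (adjusted p = 0.0622). Its counts of 2992 to 3263 in the DEN livers also lay above the control livers, as did 17.2% of genes, at a log2 difference of 0.255 (95% interval -0.03 to 0.54, adjusted p = 0.201). Pericentral hepatocyte markers moved with Shmt2, at summed levels of 3967 to 4541 TPM in the control livers and 7288 to 9549 TPM in the western-diet livers with 4 of 6 higher. Of 8 stellate cell and fibroblast markers 3 were higher, and Hnf4a of the hepatocyte list was lower. Red blood cell markers summed to 760 to 954 and 1585 to 1852 TPM in those groups, with 0 of 5 called. The part of these markers in the result was not tested. Shmt1 had no call in this fit, with log2 differences of -0.26 to 0.16 over the 6 comparisons. That between peritumoral liver and the DEN livers was -0.26 (95% interval -0.52 to -0.01, adjusted p = 0.171). It was called in the fit of the 19 non-tumor libraries (-0.27, adjusted p = 0.0438) and in that of the groups compared only (-0.26, adjusted p = 0.0436).

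The cytosolic enzymes Mthfd1 and Aldh1l1 stayed without a call in each comparison. Mthfd1 counts were 3759 to 4458 in the control livers, 4017 to 5252 in the western-diet livers, 4433 to 5047 in the DEN livers and 3568 to 5007 in peritumoral liver. Its log2 differences were -0.22 to 0.19, and the 95% interval of peritumoral liver against the western-diet livers was -0.37 to -0.01 (edgeR adjusted p = 0.145). Without peritumoral replicate 6 that value was -0.24 (adjusted p = 0.0466), that against the DEN livers was -0.26 (adjusted p = 0.0332), and the interaction was -0.43 (adjusted p = 0.0345). Peritumoral replicate 6 was the highest of its group in Mthfd1 (5007), Aldh1l1 (21520), Shmt1 (3893) and Shmt2 (3687). Without western-diet replicate 2 the interaction of Mthfd1 was -0.45 (adjusted p = 0.0485), and with DESeq2 it was -0.40 (adjusted p = 0.0479). Aldh1l1 counts were 15400 to 21950 in the control livers and 11110 to 21520 in peritumoral liver, with log2 differences of -0.38 to 0.13 and no adjusted p under 0.232 in this fit. On TPM the direction of such small differences turned in places, as for Mthfd1 in peritumoral liver against the control livers, at -0.02 in edgeR but at medians of 69.9 against 56.6 TPM.

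Mthfd2 and Aldh1l2, the other mitochondrial enzymes, had no call either. Mthfd2 counts were 55.0, 59.8 and 50.4 in the control livers and 30.2, 42.6, 28.9 and 46.9 in the western-diet livers, which did not overlap, as for 15.2% of genes in that direction. The log2 difference was -0.57 (95% interval -1.23 to 0.10, edgeR adjusted p = 0.211). For DEN on control diet it was -0.60 (adjusted p = 0.196), and -0.95 (adjusted p = 0.04) without DEN liver replicate 3, which at 60.7 was the highest of its group. Aldh1l2 counts were 28.75 to 32.1 in the control livers, 17.5 to 30.2 in the western-diet livers, 15.9 to 103 in the DEN livers and 19.3 to 91.2 in peritumoral liver. Its log2 difference was 0.91 (95% interval -0.19 to 2.00) between peritumoral liver and the western-diet livers, an interval that holds both 0 and a 4-fold difference.

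The balance between mitochondrial and cytosolic paralogs within a library does not depend on library size, and its values are given without a test. Mthfd1 exceeded Mthfd1l at the median by 96-fold in the control livers, 79.4-fold in the western-diet livers, 69.9-fold in the DEN livers and 24.2-fold in peritumoral liver on TPM. The log2 ratio of Mthfd1l to Mthfd1 was -7.13 to -6.54 in the control livers, -7.19 to -5.50 in the western-diet livers, -6.43 to -5.98 in the DEN livers and -6.01 to -3.61 in peritumoral liver. All but 1 of the 8 peritumoral libraries lay above all 11 of the other livers, and replicate 6, at -6.01, did not. Shmt2 and Shmt1 were nearly even, with medians of the log2 ratio of -0.31, -0.16, -0.30 and -0.08 in the 4 non-tumor groups, and the western-diet values (-0.19 to -0.03) did not overlap those of the control livers (-0.35 to -0.31). Mthfd1 exceeded Mthfd2 by 26.8-fold to 44.2-fold at the median outside tumors. Aldh1l1 exceeded Aldh1l2 by 732-fold to 1144-fold, a ratio limited by the few reads of Aldh1l2.

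**Figure D4:**
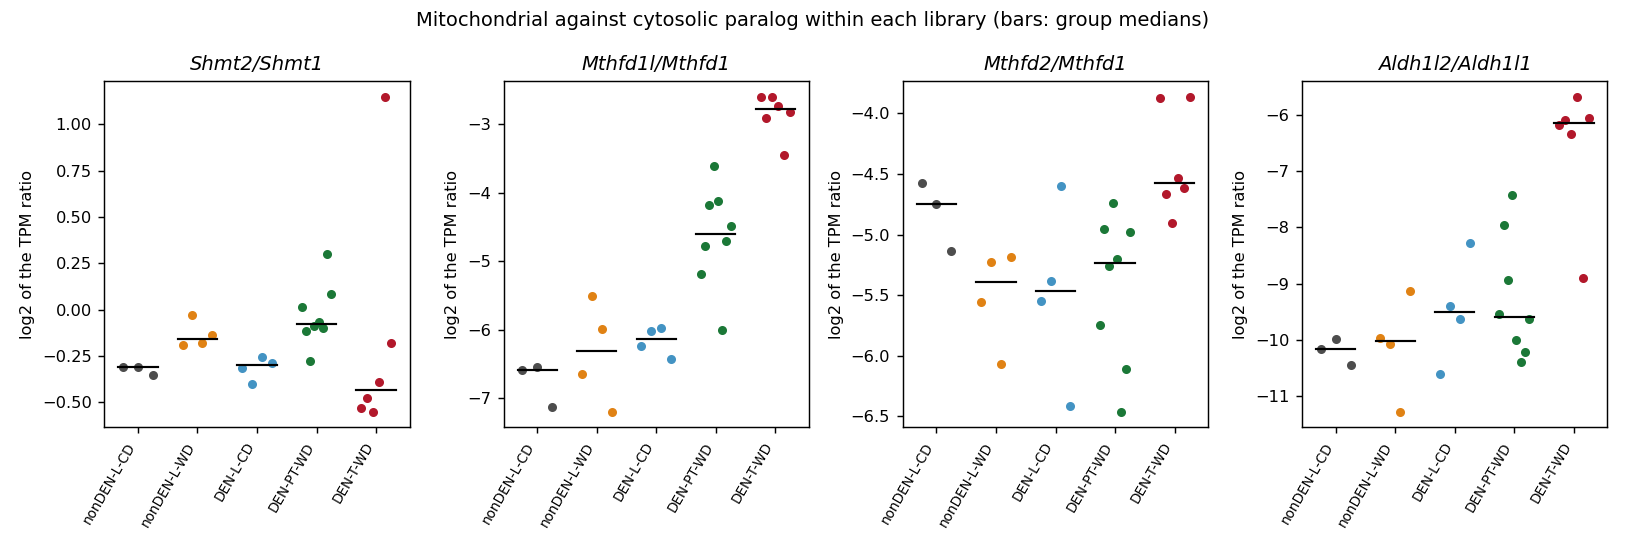
log2 of the TPM ratio of each mitochondrial enzyme to its cytosolic paralog within each library (points), by group, with bars at group medians. The ratio of Mthfd1l to Mthfd1 moves from a median of -6.59 in the control livers to -4.60 in peritumoral liver and -2.78 in tumors, and 1 tumor lies far from the others in Shmt2/Shmt1 and Aldh1l2/Aldh1l1.

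In tumors the low enzymes were higher than in peritumoral liver and the abundant ones lower, as a description. Against peritumoral liver the fitted log2 difference was 2.45 ± 0.42 (SE) for Aldh1l2, 2.25 ± 0.46 for Psat1, 1.96 ± 0.45 for Phgdh, 1.41 ± 0.22 for Mthfd1l, 1.09 ± 0.14 for Psph and 0.815 ± 0.22 for Mthfd2. It was -0.47 ± 0.08 for Mthfd1, -0.47 ± 0.19 for Aldh1l1, -0.40 ± 0.10 for Shmt2 and -0.25 ± 0.11 for Shmt1. Of the 10, Mthfd1l (307.5 to 568.4, median 465.7) and Psph (167 to 231, median 217) lay above all peritumoral values, beside 4.29% of genes that did so. Mthfd1 (2786 to 3121, median 2976) lay below all of them, beside 5.18% of genes.

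Tumor replicate 5 lay apart from the other 5 tumors in 6 members. It had 21.4 normalized counts of Phgdh (the others 140 to 324), 166 of Psat1 (855 to 990), 32.4 of Aldh1l2 (194 to 361) and 1592 of Shmt1 (2677 to 3122), the last farther from peritumoral liver than the other tumors were. Aldh1l1 was at 19910 there and at 8285 to 10330 in the others, and Shmt2 at 3062 against 1934 to 2318. Mthfd1l (307.5), Psph (167) and Mthfd1 (3090) of that library still lay on the tumor side of all peritumoral values. Without it the log2 differences against peritumoral liver were 2.68 for Aldh1l2, 2.465 for Psat1, 2.20 for Phgdh, 1.505 for Mthfd1l, 1.15 for Psph, 0.85 for Mthfd2, -0.73 for Aldh1l1, -0.51 for Shmt2, -0.48 for Mthfd1 and -0.14 for Shmt1. Hepatocyte markers of replicate 5 summed to 32794 TPM, beside 108210 to 128760 TPM in the other 5 tumors and 39599 to 67667 TPM in peritumoral liver. The sum does not stand for the whole list. Over the 6 tumors the median of the 8 hepatocyte log2 differences from peritumoral liver was -0.12, with 4 of 8 above 0. The proliferation markers of replicate 5 (53.6 TPM) were the highest of the 6. The part of these markers in its member values was not tested.

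Psat1 was the highest of the low genes in tumors, at a median of 23.3 TPM, followed by Phgdh at 11.1, Psph at 9.53 and Mthfd1l at 7.88 TPM. In the control livers Psph was the highest of the 3 serine synthesis enzymes, at 11.97 TPM against 1.06 for Psat1 and 0.91 for Phgdh. Normalized counts of Psph in tumors (166.6 to 231) overlapped those of the control livers (184 to 339), whereas those of Psat1 (165.9 to 990) lay above them (26.9 to 71.3), as for 21.7% of genes. Proliferation markers summed to 25.6 to 53.6 TPM in tumors and bile duct markers to 385 to 834 TPM, beside medians of 16.9 and 157 in peritumoral liver, and pericentral hepatocyte markers to 1471 to 3175 TPM beside 4996 to 8268. The bile duct sum was mostly Spp1 (mean normalized counts of 13820 in tumors and 3528 in peritumoral liver), while Krt19 (36.9 and 71.4) and Krt7 (24.3 and 38.45) were lower in tumors and the median of the 6 log2 differences was 0.14. Their part in the member values was not tested.

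Other genes of the same pathways were taken from 7 lists, whose calls are given beside the background shares above. In western against control diet without DEN, 2 of the 11 other folate enzymes changed. Sardh, which oxidizes sarcosine, rose by 0.45 ± 0.13 on the log2 scale (edgeR adjusted p = 0.016) and Ftcd of histidine breakdown by 0.44 ± 0.16 (adjusted p = 0.0425). Of 13 tested genes of serine and glycine breakdown, Gcsh (0.23) and Agxt2 (0.50) rose, and Sdsl (-1.22), a serine dehydratase-like enzyme, and Gcat (-0.40) fell.

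The methionine cycle list showed 6 calls of 15 in the same comparison. Gatm (1.12) and Gamt (0.78), which make creatine, rose with Aldh7a1 (0.31) and Mat2b. Nnmt, which methylates nicotinamide, fell from a mean of 7416 to 1384 normalized counts (log2 -2.42 ± 0.575, adjusted p = 0.00435), and Cbs (-0.51) fell. Paics of purine synthesis (-0.49), the mitochondrial serine carrier Sfxn1 (-0.28) and the asparagine synthetase Asns were also lower. Asns went from 242 to 289 normalized counts in the control livers to 11.3 to 62.9 in the western-diet livers (log2 -2.83 ± 0.57, adjusted p = 0.00119), and the other 10 genes of the ATF4 and amino acid response list had no call. No folate carrier or receptor of the 4 tested passed. Of these 15 calls, those of Sdsl, Nnmt and Asns passed in all 14 alternatives. Without western-diet replicate 1 the difference of Gatm was 0.70, still called. In this comparison 4 of 6 pericentral hepatocyte markers (median log2 difference 0.81) and 3 of 8 stellate cell and fibroblast markers were higher. Of the 8 hepatocyte markers 1, Hnf4a, was lower. The part of these markers in the pathway values was not tested.

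DEN on control diet gave calls in part of the same genes, with the same control livers. Mthfd2l (0.84), a paralog of Mthfd2, rose, and Mtrr (-0.31), the reductase that keeps methionine synthase active, fell, 2 of 11 other folate enzymes. Gcsh rose (0.235) and Sdsl fell (-0.81). Mat2b (0.28), Gamt (0.73) and Gatm (0.82) rose and Nnmt fell (-1.79), 4 of 15 methionine cycle genes. Gart of purine synthesis (-0.29) and Atf5 (-0.77) were lower, and no carrier passed. Of these 10 calls, those of Mthfd2l and Mat2b passed in all 14 alternatives.

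Peritumoral liver against the control livers, which combines both factors, had 6 of 11 other folate enzymes called, beside 45.3% of all genes. Mthfd2l (0.975), Ggh (0.32) and Mtr (0.25), the methionine synthase, rose, and Fpgs (-0.63), which adds glutamates to folate, Mtrr (-0.34) and Dmgdh (-0.38) fell. Folr2, a folate receptor, rose by 0.81 on the log2 scale, beside 4 of 8 macrophage and Kupffer cell markers higher (median of the 8 at 0.75) and 4 of 8 hepatocyte markers lower (median -0.48), whose part in the pathway values was not tested. Gcsh (0.18) rose and Sdsl (-1.01), Gcat (-0.57) and Hao1 (-0.64) fell, 4 of 13. Of the methionine cycle 8 of 15 changed, with Gatm (1.22), Mat2b (0.29) and Gamt (0.50) higher and Cbs (-1.003), Nnmt (-2.38), Mat2a (-0.44), Mat1a and Pemt lower. Paics (-0.63) and Gart (-0.28) fell, 2 of 6 purine genes. The carriers Slc38a1 (1.04) and Slc6a9 (0.55) rose and Slc38a2 (-0.915) fell. Trib3 (1.71) and Slc7a11 (4.54 ± 1.84, a mean of 7.305 counts in the control livers) rose and Atf5 (-0.88) and Asns (-1.205) fell. Of these 28 calls, 16 passed in all alternatives run. That of Mtr passed in 4 of 18. That of Mat1a was lost without control replicate 3 (-0.285, adjusted p = 0.315), and that of Slc7a11 in 11 of 17 alternatives, among them any 1 control liver left out (adjusted p of up to 0.148). Its log2 difference was 5.37 without control replicate 3 (adjusted p = 0.0967) and 4.04 without control replicate 2 (adjusted p = 0.148).

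**Figure D5:**
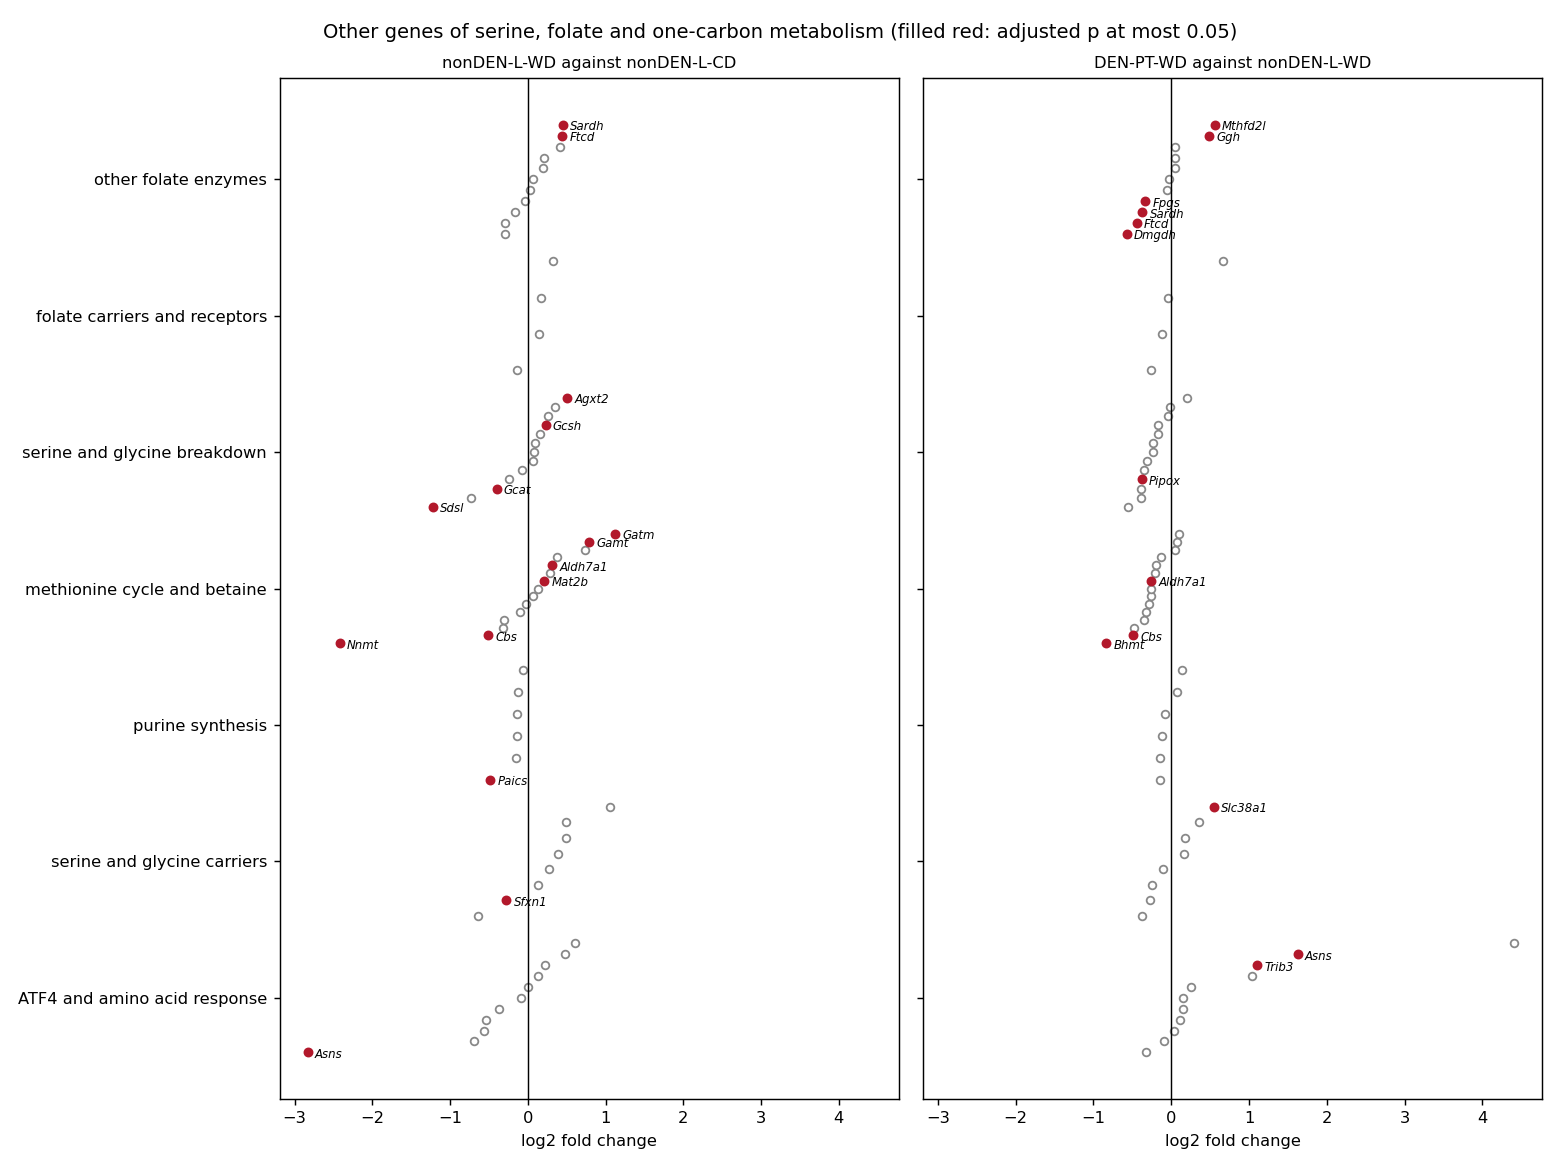
edgeR log2 fold changes of the genes of 7 pathway lists for western diet without DEN (left) and for peritumoral liver against the western-diet livers (right), filled red where the adjusted p was at most 0.05. Asns lies at -2.83 on the left and at 1.63 on the right, and the methionine cycle calls on the right are all below 0.

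On western diet, peritumoral liver against the western-diet livers gave 6 of 11 other folate enzymes. Ggh, the hydrolase that trims folate glutamates, rose by 0.49 ± 0.08 on the log2 scale (edgeR adjusted p = 0.00107) and passed in all 19 alternatives, alone among the 13 pathway calls of this comparison. Mthfd2l rose by 0.56 ± 0.14 (adjusted p = 0.0147). Dmgdh (-0.57), Ftcd (-0.44), Sardh (-0.37) and Fpgs fell. Pipox (-0.38), another sarcosine oxidase, also fell. Bhmt (-0.84), Cbs (-0.49) and Aldh7a1 (-0.26) of the betaine and methionine list fell, 3 of 15 with 12 of the 15 values below 0. Pericentral hepatocyte markers fell in the same comparison for 4 of 6 (median -0.55), all 8 hepatocyte markers had values below 0 (median -0.27), of which 0 passed in edgeR or DESeq2 and 2 had an unadjusted edgeR p under 0.05, and their part in these falls was not tested. Slc38a1 (0.55), Asns (1.63 ± 0.49, adjusted p = 0.0338) and Trib3 (1.10) rose, and these 3 calls held in 7, 9 and 9 of 19 alternatives. Without the acinar-rich libraries Asns stood at 2.48 and was no longer called.

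Among DEN mice, Dmgdh (-0.60) and Fpgs (-0.35) were lower in peritumoral liver than in the DEN livers, 2 of 11 other folate enzymes. Gcat (-0.62) and Pipox (-0.44), Pemt (-0.48) and Cbs (-0.505), Paics (-0.41) and the glutamine carrier Slc38a3 (-0.54) were lower too. Slc38a1 (0.70) and Sesn2 (0.60), a stress-induced regulator, rose. Dmgdh, Gcat, Pipox, Pemt and Paics passed in all 19 alternatives, Sesn2 in 18, Slc38a1 in 17, Cbs in 12, Fpgs in 8 and Slc38a3 in 6. In this comparison 4 of 8 stellate cell and fibroblast and 4 of 6 endothelial markers were higher. Of 8 hepatocyte markers 1, Serpinc1, was lower. The part of these markers in the pathway values was not tested. Between the DEN livers and the western-diet livers only Ggh passed, higher by 0.42 ± 0.09 in the DEN livers (adjusted p = 0.0256), and in 7 of 15 alternatives.

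The interaction of DEN with diet was called for 8 pathway genes, beside 8.39% of all genes. These were 3 of 11 other folate enzymes, 2 of 13 breakdown genes, 2 of 15 methionine cycle genes and 1 of 11 of the ATF4 list. No gene of the other lists passed. The interaction was positive for Asns (2.99 ± 0.72, edgeR adjusted p = 0.0131) and Sdsl (1.02 ± 0.31, adjusted p = 0.0433), both lower on western diet without DEN. Among DEN mice mean normalized counts were 117.4 in peritumoral liver and 105.6 in the DEN livers for Asns, and 105.5 and 121.6 for Sdsl. It was negative for Ftcd (-0.81), Dmgdh (-0.80), Pipox (-0.59), Gamt (-1.01), Aldh7a1 (-0.40) and Sardh (-0.63). Asns passed in all 26 alternatives and Sdsl in 10. All values of the interaction use the 3 control livers and set dissected peritumoral tissue against whole liver.

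Genes whose pattern was most like that of a member over the 19 non-tumor libraries are named by Pearson r on log2 CPM. They were sought among 8069 genes with a mean log2 CPM of at least 3, or 8068 where the member itself was in that set. Mthfd1l was most like Itpripl2 (r = 0.96), Abr (0.95) and Mfge8 (0.95), and Psph most like Morf4l2 (0.96), Mcfd2 (0.94) and Tmem263 (0.93). Psat1 was most like Ly6d (0.915) and Golm1 (0.90), and Golm1 also led in that set for Phgdh (0.80) and Aldh1l2 (0.62). Phgdh, Psat1 and Aldh1l2 were themselves below its level. Their r with each other was 0.81 for Phgdh and Psat1, 0.70 for Phgdh and Aldh1l2 and 0.685 for Psat1 and Aldh1l2. Shmt2 was most like Faah, Car5a and Cisd1 (each 0.93), Shmt1 most like Pecr (0.87) and Mthfd2 most like Rnps1 (0.78). Mthfd1 was most like Ttc36 (0.91) and Aldh1l1 most like the urea cycle gene Ass1 (0.89), and Slc38a3 was among the 3 leading genes of both. Mthfd1 and Aldh1l1 correlated with each other at r = 0.865, and at 0.86 within groups. Group differences enter each pooled r, so the values describe these libraries only.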

How the data were processed

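Poly-A RNA libraries of liver and tumor were sequenced from single ends. The authors checked reads with FastQC, aligned them to GRCm38 with STAR and quantified genes with RSEM. The versions of STAR and RSEM, the annotation used and the strand setting are not given in the sources used here. The deposited files give, for 48795 genes, RSEM's expected count (not normalized), TPM (scaled per length and library) and FPKM (per length and mapped reads). Replicates were not pooled.

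Expected counts were rounded and fitted in edgeR 4.0.16 (R 4.3.3) with glmQLFit and glmQLFTest over 5 groups, TMM and filterByExpr (minimum count 10), with Benjamini-Hochberg adjustment over 15625 genes. Calls needed an adjusted p of at most 0.05, where the study's methods used DESeq2 with apeglm and also set a minimum log2 fold change of 1 in either direction. SE is the log2 fold change over the root of F. TPM gave levels and paralog ratios (pseudocount 0.01), and FPKM an alternative ratio. DESeq2 1.42.0, its size factors, no filter, fewer libraries, a replicate block and each library left out were alternatives. The study's methods speak of biological replicates, and no label ties a library to a mouse, so p-values measure the spread between these libraries. Precision depends on counts, as low as 11 in a library for Phgdh, and on the spread between libraries.

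Members and lists were chosen with earlier results of these data known. Named pathway genes are up to 3 of lowest adjusted p per direction and list, and the others named after their values were seen are Mat1a, Mat2b, Pemt and Fpgs where they fell outside that rule. Of the pathway lists, 2 genes are not reported here, and the counts leave them out. On simulated counts for western diet without DEN (15317 genes, 200 changed), 74% of log2 changes of 1 and 94% of 2 were called, with 8 unchanged genes called. For peritumoral against western-diet liver (15314 genes) the shares were 85% and 98%, with 10. These shares are over genes of mixed level and spread, and were not worked out for members of few reads and wide spread such as Phgdh, Psat1 and Aldh1l2. Coordinates are from GENCODE vM21 and RefSeq promoter windows from GRCm38.p6, where Psat1 had 2 windows and Aldh1l2 none. Of the gene identifiers, 48349 matched a symbol. Text and figures used Python 3.11.15, pandas 2.3.3, NumPy 2.4.6 and Matplotlib 3.10.9.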

Additional observations from a re-analysis of the deposited data

Results flagged for a closer look

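In all, 6 values among 40 groups of members lay farther from their group than Dixon's 95% limit, where chance flags about 1 in 20. Of these, 5 belong to tumor replicate 5: normalized counts of 21.4 for Phgdh (nearest 140), 166 for Psat1 (nearest 855), 1592 for Shmt1 (nearest 2677) and 32.4 for Aldh1l2 (nearest 194), all lowest of the 6 tumors, and 19910 for Aldh1l1 (nearest 10330), the highest. The other is Shmt1 in peritumoral replicate 6, at 3893 with the nearest at 3281. Psph is flagged for its interaction of DEN with diet, 1.30 on the log2 scale (edgeR adjusted p = 0.00437). Its DEN side sets dissected peritumoral tissue against whole liver, so diet and dissection cannot be told apart there.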

How the results depend on the processing

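Alternatives chosen after seeing the data were leaving out the 8 libraries with at least 1000 TPM of acinar markers, the tumor alternatives and those of the pathway genes. No member with a call turned its direction in any alternative run. The count of members past the test for western diet without DEN moved from 2 to 1 with a minimum log2 fold change of 1 in either direction, with DESeq2 size factors and without the count filter (1 in each), and was 1 to 3 with 1 library left out. For peritumoral against western-diet liver it moved from 2 to 1 without the acinar-rich libraries and was 1 to 4 with 1 left out, 4 without peritumoral replicate 6. It was 3, with Phgdh added, with DESeq2, in the fit of 19 non-tumor libraries and in that of the groups compared only. For peritumoral against control livers it moved from 3 to 4 with DESeq2 and in the fit of 19 libraries (Phgdh added), to 2 without the count filter or the acinar-rich libraries (Psat1 lost), and was 2 to 3 with 1 left out. For peritumoral against DEN livers it moved from 1 to 2 in the fit of 19 non-tumor libraries and of the groups compared only, and was 1 to 2 with 1 left out. The interaction moved from 1 to 2 with DESeq2 and was 1 to 2 with 1 left out, as was DEN against no DEN on control diet. The cause of these moves was not tested. Whether replicate numbers pair the samples is not known from the labels. The mean correlation of same-numbered deviations ran from -0.181 to 0.149 over pairs of groups, which cannot decide it, since tissues of 1 mouse need not vary alike. With the replicate block the counts of members called were 4 for peritumoral against control livers, 3 for peritumoral against western-diet livers, 2 for peritumoral against DEN livers and 2 for the interaction, where the added calls were Phgdh in the first 2 comparisons, Aldh1l1 (-0.68, adjusted p = 0.0335) in the third and Shmt2 (-0.60, adjusted p = 0.0315) in the interaction. The median log2 ratio of Aldh1l2 to Aldh1l1 in control livers moved to -9.665 with a pseudocount of 0.1. The 80 tumor values, and 139 of 140 ratios, moved by less than 1 SD of the replicates. Of 85 pathway calls, 28 passed in every alternative run. Counts were lowest for Phgdh, Aldh1l2, Psat1 and Mthfd2, with as few as 11, 15, 17 and 18 in a library, and how far depth limits their results was not tested.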
